A study of Mus musculus with 9 samples.

Results

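RNA from mouse peritoneal macrophages was compared between cells given lipopolysaccharide (LPS) with a compound that the labels call CPZ and cells given LPS alone. The study's title concerns alcohol, the polarization of macrophages in colitis and signalling through TRPV1. CPZ is not spelled out in the labels, and no structure is assumed here. The comparison covers every gene with at least 1 FPKM (a measure of transcript abundance scaled to transcript length and to library size) in no fewer than 3 of the 6 libraries of both groups, which kept 11344 of the 55335 gene IDs in the table. All 6 libraries came from cells held for 1 h in RPMI 1640 medium and then exposed to 1 µg/mL LPS for 4 h, and the LPS+CPZ group received 100 µM CPZ in addition. Another group of 3 libraries, LPS+EtOH, received 5% ethanol with the LPS, and it entered the same statistical fit. Each library was a pool of 3 distinct RNA samples at equal amounts, drawn from the biological replicates of its group. The labels do not say which animals or cultures these were, or the strain, age or sex of the mice, so p-values reflect the variation among pools alone. Each difference is between LPS-treated groups: resting cells, CPZ on its own and the solvent of CPZ were not analysed here.

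LPS is a component of the outer membrane of Gram-negative bacteria. Macrophages sense it through the receptor TLR4, whose adaptors MyD88 and TRIF switch on NF-kB, MAP kinases and interferon regulatory factors, and with them cytokine, chemokine and interferon-induced genes. Stressed cells run other programs beside these. Misfolded protein releases the heat shock factor HSF1, electrophiles and oxidants release NRF2 from KEAP1, low oxygen or blocked prolyl hydroxylases stabilise the hypoxia-inducible factors, and lysosomal stress sends TFEB to the nucleus.

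Values were compared as log2(FPKM + 1) with limma, and a gene is called higher or lower when its Benjamini-Hochberg adjusted p, taken over all 11344 genes, is under 0.05. A log2 change is the LPS+CPZ mean minus the LPS mean on that scale, ± its standard error (SE), and it understates the change of genes near 1 FPKM. FPKM is relative to the whole library, and the file gives no fragment counts, so the depth behind a value is unknown. The make-up of the libraries differed: the 4 adult globin genes took 11.5 to 29.4% of all FPKM in LPS and 0.0452 to 0.0972% in LPS+CPZ. Gm22133, a microRNA gene model of 109 nt that lies wholly inside an Ftl1 exon on the same strand, took 0.759 to 1.09% in LPS and 13.1 to 16.2% in LPS+CPZ. The counts of calls over all genes and of the 16 lists described below were therefore repeated with globin genes left out and with the libraries rescaled to their median ratio (median-ratio scaling). In bulk libraries fewer cells of a type and less RNA per cell cannot be told apart.

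CPZ was accompanied by a broad shift of the transcriptome, with more genes lower than higher. Of the 11344 genes, 7966 were called (70.2%), 2326 higher (20.5%) and 5640 lower (49.7%), and the LPS and LPS+CPZ libraries did not overlap for 8355 genes (73.7%). Higher genes made up 29.2% of the calls. Over all tested genes the median log2 change was -0.35. Under median-ratio scaling the median was -0.21, and 2743 genes were higher (24.2%) and 4761 lower (42.0%). Among the calls the higher share was 18.0% with globin genes left out and 45% under quantile scaling, which forces the same distribution on each library. Calls in the same direction under all 5 scalings (as deposited, TPM, globin genes left out, median-ratio and quantile) were made for 5474 genes, 1604 higher and 3870 lower. At least 1 FPKM in all 6 libraries was reached by 8954 genes, of which 1793 were higher and 4293 lower. The filter was passed through the LPS libraries alone by 732 genes and through the LPS+CPZ libraries alone by 351, and such genes could hardly fail to differ. A log2 change of at least 1 was reached by 1132 genes called higher and 2012 called lower.

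**Figure D1:**
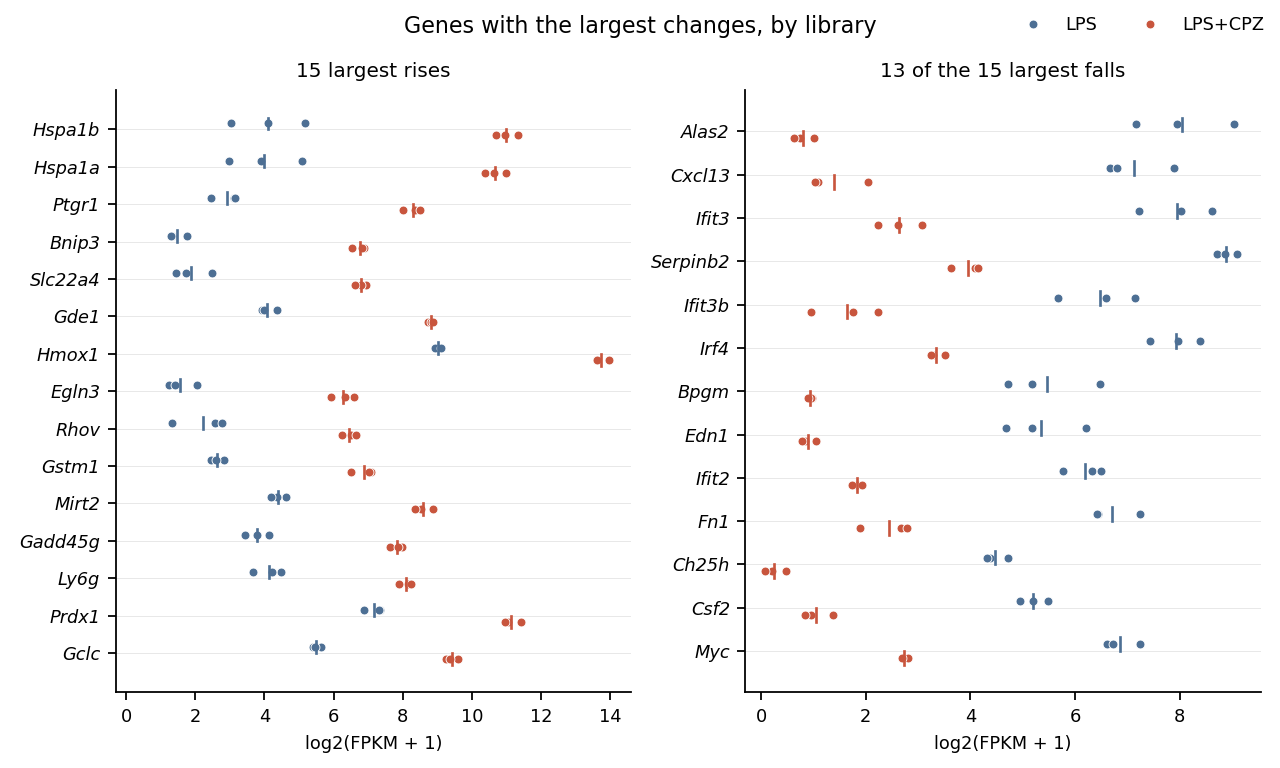
Values of the 15 genes with the largest rises (left) and 13 of the 15 with the largest falls (right), as log2(FPKM + 1) on the horizontal axis. Each point is 1 library, blue for LPS and red for LPS+CPZ, and short vertical lines are group means over 3 libraries. In each gene drawn all 3 LPS+CPZ points lie apart from all 3 LPS points, a condition of the selection.

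Among genes that average 5 FPKM or more in LPS+CPZ, the 15 with the largest rises included genes of chaperones, of glutathione and heme metabolism and of hypoxia-inducible factor targets. Beside them were genes of other kinds: Ptgr1, Slc22a4, Gde1, Rhov, Mirt2, Gadd45g and Ly6g. The inducible HSP70 chaperone genes Hspa1b and Hspa1a, which are almost the same in sequence, led the order. With LPS alone Hspa1b had 7.13, 16.1 and 34.9 FPKM, and with CPZ it had 1675, 2588 and 1978 FPKM (log2 change 6.90 ± 0.43, limma adjusted p = 4.06e-07). Hspa1a moved from 6.88, 14.01 and 32.8 to 1335, 2031 and 1591 FPKM. How fragments were divided between these copies is uncertain, and both were low throughout LPS and high throughout LPS+CPZ. Ptgr1, which encodes a reductase of prostaglandins and leukotrienes, went from 7.74, 7.87 and 4.48 to 329, 258 and 361 FPKM (log2 change 5.38 ± 0.28). Slc22a4, the ergothioneine transporter gene, went from 2.32, 4.62 and 1.69 to 121, 109.5 and 98.4 FPKM. Gde1, which encodes a glycerophosphodiester phosphodiesterase, stood between 14.2 and 19.6 FPKM in LPS and reached 422, 454 and 473 in LPS+CPZ. None of these genes overlapped between the groups, which was a condition of their selection.

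Rhov, which encodes an atypical small GTPase, was at 4.91, 5.81 and 1.504 FPKM in LPS and at 90.0, 98.6 and 74.4 in LPS+CPZ. Mirt2, a long noncoding RNA known to be induced by LPS in macrophages, rose from 23.7, 19.6 and 17.3 to 369, 329 and 470.1 FPKM (log2 change 4.20 ± 0.17). The growth arrest gene Gadd45g rose from 12.8, 16.6 and 9.76 to 198, 254 and 233 FPKM. Ly6g, a surface marker of neutrophils, was also among the 15, at 21.2, 17.6 and 11.8 FPKM in LPS and 284, 239 and 299 in LPS+CPZ. Of the 14 neutrophil markers tested, Ly6g among them, 4 were higher and 4 lower. The remaining members of the 15, Bnip3, Hmox1, Egln3, Gstm1, Prdx1 and Gclc, are described with their pathways. Log2 changes of the 15 ran from 3.91 to 6.90.

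The largest falls included red blood cell genes, interferon-induced genes, genes of secreted proteins and transcription factor genes. Alas2, the erythroid enzyme that starts heme synthesis, fell from 246, 142 and 527 to 0.675, 0.541 and 1.02 FPKM (log2 change -7.26 ± 0.37, limma adjusted p = 1.15e-07). The erythrocyte gene Bpgm fell with it (log2 change -4.52 ± 0.35). LPS replicate 3, the library with the most globin, was the highest LPS library for both genes. Cxcl13, the chemokine gene that draws B cells, fell from 238, 100.2 and 110.1 to 1.12, 1.04 and 3.14 FPKM (log2 change -5.73 ± 0.33). Serpinb2, which encodes an inhibitor of plasminogen activators, fell from 547, 417 and 463 to 16.1, 11.4 and 16.6 FPKM. In each of these genes every LPS+CPZ library lay far below every LPS library, and a lack of overlap was a condition of their selection.

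Fn1, the fibronectin gene, fell from 149.99, 86.2 and 84.2 to 5.39, 2.68 and 5.89 FPKM. Edn1, which encodes the vasoconstrictor endothelin 1, fell from 72.8, 24.6 and 35.0 to 0.797, 1.08 and 0.727 FPKM. Ch25h, the cholesterol 25-hydroxylase gene, fell from 19.7, 25.5 and 18.8 to 0.150, 0.0456 and 0.381 FPKM, close to 0. Ch25h passed the filter through the LPS libraries alone. Irf4, a transcription factor of B cells, dendritic cells and alternatively activated macrophages, fell from 171, 334 and 248 to 8.68, 10.4 and 8.49 FPKM (log2 change -4.58 ± 0.24). B cell markers were lower in the same libraries, 13 of 14, and their part in the fall of Irf4 and Cxcl13 was not tested.

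**Figure D2:**
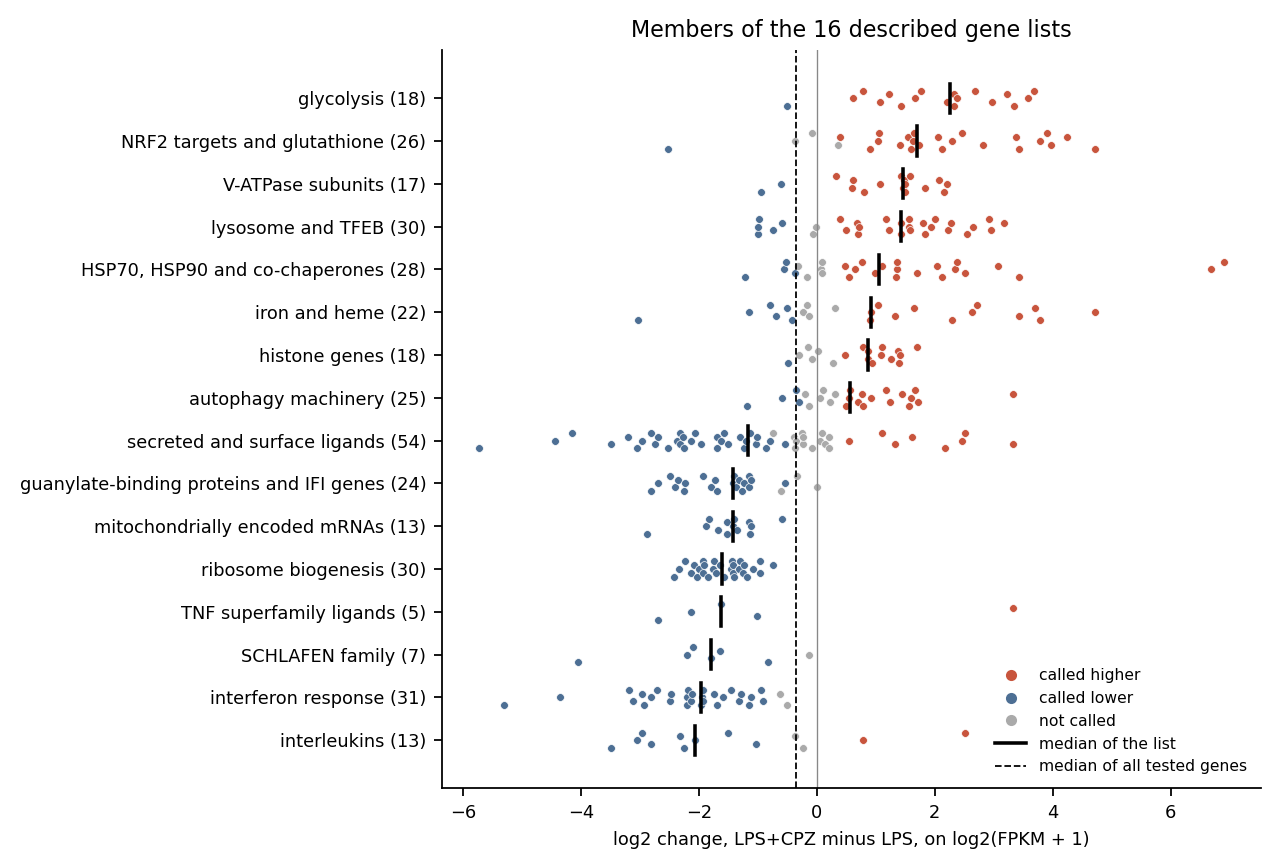
Log2 change of each tested member of the 16 gene lists and families whose medians lay farthest above or below that of all genes, with the number of tested members in parentheses. Red points were called higher, blue points lower and grey points neither. Thick black lines are list medians, from 2.26 for glycolysis to -2.06 for interleukins, and the dashed line is the median of all tested genes, -0.35.

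Of 107 lists and families with at least 5 tested members, 44 had a median above that of all genes and 63 below. More members were higher than lower in 14 of them, and in 21 under median-ratio scaling. The 8 highest and 8 lowest medians are described here by role. The lists were drawn up with earlier results known, so their counts are descriptions to be read against the 20.5% higher and 49.7% lower of all genes.

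Most genes listed for HSP70, HSP90 and the small heat shock proteins were higher. HSP70 and HSP90 fold and refold client proteins with help from J-domain proteins, nucleotide exchange factors and co-chaperones. Of 28 tested members, 19 were higher and 4 lower (19 and 3 under median-ratio scaling), with a median log2 change of 1.05. Hsph1, an HSP110 exchange factor, rose from 4.63, 7.59 and 10.5 to 62.9, 109 and 97.5 FPKM (log2 change 3.43 ± 0.29). The J-domain gene Dnajb1 rose from 13.6, 15.05 and 15.4 to 91.6, 163 and 149 FPKM. Dnaja1, another J-domain partner, rose from 12.7, 15.6 and 16.1 to 66.8, 93.2 and 83.3 FPKM. The inducible HSP90 gene Hsp90aa1 changed by 2.51 ± 0.14, while the constitutive Hsp90ab1 changed by 0.47 ± 0.18 with overlapping libraries. For Hsph1, Dnajb1, Dnaja1, Hsp90aa1 and Hsp90ab1 LPS+CPZ replicate 1 was the lowest of its group. That did not hold for the whole list: Dnajb4 was highest in replicate 1, at 12.1 FPKM against 10.9 and 11.5.

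Hspb1, which encodes HSP27, rose from 4.00, 3.53 and 3.76 to 13.5, 25.4 and 35.7 FPKM, and Bag3, a co-chaperone that routes clients to autophagy, rose from 5.62, 4.67 and 4.25 to 16.5, 24.4 and 29.2 FPKM. The 4 members called lower were Hspbp1, Cdc37, Ppid and Unc45a. Hspbp1, an exchange factor for HSP70, fell from 5.77, 7.56 and 6.58 to 1.43, 3.12 and 2.48 FPKM (log2 change -1.22 ± 0.18). The mitochondrial chaperonin gene Hspd1 was not called (0.09 ± 0.22), and its partner Hspe1 rose (1.36 ± 0.26). Other chaperone families did not share this balance. Of 34 DNAJ (HSP40) genes 13 were higher and 14 lower, with a median of -0.14 (13 and 11 under median-ratio scaling), and of 8 subunits of the cytosolic CCT chaperonin none was higher and 5 were lower. The 26S proteasome, which degrades what chaperones cannot rescue, had 20 of 37 subunits higher and 5 lower, with a median of 0.46. Of 23 genes of the unfolded protein response of the endoplasmic reticulum, 3 were higher and 8 lower (6 and 6 under median-ratio scaling).

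Antioxidant genes controlled by NRF2 were almost all higher. Of 26 tested members of the list of NRF2 targets and glutathione genes, 22 were higher and 1 lower (23 and 1 under median-ratio scaling), with a median of 1.69. Gclc, the catalytic subunit of the enzyme that starts glutathione synthesis, rose from 41.1, 49.2 and 43.4 to 781, 614 and 661 FPKM (log2 change 3.91 ± 0.16, limma adjusted p = 5.33e-08). Its regulatory partner Gclm rose from 15.8, 19.5 and 12.4 to 78.5, 66.7 and 71.5 FPKM. Prdx1, the gene of the peroxide-reducing enzyme peroxiredoxin 1, rose from 160.3, 159.96 and 116 to 2123, 1997 and 2759 FPKM (log2 change 3.97 ± 0.20). In all 3 genes every LPS+CPZ library stood well above every LPS library, though for Gclc and Prdx1 a lack of overlap was a condition of selection.

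Further members act in glutathione use and peroxide removal. Gstm1, a glutathione transferase gene, went from 4.46, 6.17 and 5.07 to 134, 90.0 and 129 FPKM, Srxn1, the sulfiredoxin gene, from 116, 78.3 and 61.2 to 519, 635 and 597 FPKM, and the catalase gene Cat from 19.4, 15.5 and 23.4 to 106, 105 and 120.1 FPKM. Nqo1, a quinone reductase often read as the index gene of NRF2, changed by 2.29 ± 0.22. The separate family of peroxiredoxins and thioredoxins, which holds Prdx1, was mixed, with 7 of 22 higher and 11 lower and a median of -0.33 (8 and 9 under median-ratio scaling). Keap1, the inhibitor of NRF2, was itself higher (1.59 ± 0.17). The member called lower was Gpx1, a glutathione peroxidase gene abundant in red blood cells, which fell from 67.2, 50.9 and 119.7 to 10.2, 10.7 and 16.1 FPKM. LPS replicate 3, rich in globin, was again its highest library. Slc7a11, the cystine importer, was at 345, 297 and 240.5 and 414, 371 and 344 FPKM. It passed the test as higher under median-ratio scaling but not as deposited (log2 change 0.36 ± 0.15 as deposited).

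The promoter of Prdx1 is shown because it carries a pair of AP-1 motifs (TGANTCA, read the same on both strands), which lie at the core of many elements bound by NRF2 with small MAF proteins. It spans the 250 bases before the RefSeq start, chr4:116685349-116685598 on the plus strand of GRCm38.p6, with matches in capitals.
Prdx1: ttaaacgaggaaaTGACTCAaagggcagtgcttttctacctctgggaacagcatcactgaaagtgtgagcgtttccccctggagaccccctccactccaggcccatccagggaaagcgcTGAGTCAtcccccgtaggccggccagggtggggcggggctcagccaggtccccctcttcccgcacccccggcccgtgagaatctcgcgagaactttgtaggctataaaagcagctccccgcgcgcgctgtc
An AP-1 match was found in the promoters of 6.33% of the 7649 tested genes with a RefSeq promoter of 300 bases, in 7.49% of higher genes, in 13.8% of the 203 that rose by at least 2 on the log2 scale and in 11.3% of the 212 that fell by as much. The longer antioxidant response element (TGACNNNGCA or its complement), which can overlap an AP-1 match, was in 3.14% of all, 4.55% of higher and 2.65% of lower genes. Its share was 6.4% among genes that rose by at least 2 on the log2 scale and 4.25% among those that fell by as much. The bases printed for Prdx1 hold no match to this longer element. Neither do the 250 bases before the starts of Gstm1, Blvrb, Ftl1, Fth1 and Sqstm1. A match lies in this window in Dnajb1, Ctsd and Hexa, which rose, and in Cxcl13, Slfn5 and Slfn3, which fell. Binding was not measured.

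Heme breakdown and iron storage genes rose to some of the highest levels in the LPS+CPZ libraries. Heme oxygenase opens the heme ring and frees iron, biliverdin reductases take the product further, and ferritin stores the iron. Hmox1, the inducible heme oxygenase gene, rose from 516, 489 and 549 to 12689.7, 12546 and 16084 FPKM (log2 change 4.72 ± 0.18, limma adjusted p = 4.7e-08). Ftl1, the ferritin light chain gene, rose from 1885, 1791 and 1581 to 15874, 19627 and 21528 FPKM, and Fth1, the heavy chain gene, from 1666, 1567 and 1289 to 4461, 4295 and 5306 FPKM. Ftl1 has near-identical pseudogenes, and Gm22133 lies inside it, so its level is uncertain. Gains in FPKM were ranked without predicted genes such as Gm22133, pseudogenes, immunoglobulin segments and globins. The largest of these gains were those of Ftl1, Hmox1 and Fth1, followed by Slpi, a protease inhibitor gene (684, 651 and 406 to 2675, 2820.2 and 3716 FPKM), and Sqstm1.

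Along the heme route, Blvrb, a biliverdin reductase gene, rose from 10.4, 11.1 and 7.15 to 134, 129 and 169 FPKM, whereas Blvra did not pass the test (-0.14 ± 0.14). Slc48a1, which moves heme out of the lysosome, rose from 12.96, 12.8 and 17.5 to 184, 177 and 237 FPKM. Slc40a1, the iron exporter ferroportin, rose from 12.6, 11.5 and 7.25 to 77.8, 69.8 and 71.3 FPKM. Iron uptake and sensing moved the other way: Tfrc, the transferrin receptor gene, fell (-0.69 ± 0.16), as did Aco1 (-0.79 ± 0.13) and Ireb2 (-0.51 ± 0.12), the genes of both iron regulatory proteins. Steap4, a metalloreductase gene, fell from 25.3, 28.2 and 17.8 to 3.14, 1.80 and 1.27 FPKM. Of the 22 genes of iron and heme, 12 were higher and 6 lower (12 and 5 under median-ratio scaling), with a median of 0.91. Across the alternative processings given below, other than a 5 FPKM filter or a minimum log2 change, 12 to 13 were higher and 4 to 9 lower. Lower members included Fech and Urod, genes of heme synthesis. Red blood cell markers were lower in the same libraries, 6 of 6, and their part in the changes of heme and iron genes was not tested.

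Lysosomal genes rose together with the proton pump that acidifies the lysosome. In the list of lysosome and TFEB genes 23 of 30 were higher and 5 lower, with a median of 1.42, and in the V-ATPase family 15 of 17 were higher and 2 lower, with a median of 1.46. These counts were the same under median-ratio scaling. They varied across the alternative processings given below, other than a 5 FPKM filter or a minimum log2 change. Of the lysosome list 20 to 23 genes were higher and 4 to 7 lower, and of the V-ATPase family 12 to 15 and 1 to 2. Ctsd, the gene of the protease cathepsin D, rose from 273, 309 and 209.7 to 2469, 2180.1 and 2467 FPKM (log2 change 3.18 ± 0.17, limma adjusted p = 1.4e-07). Hexa, a hexosaminidase gene, rose from 29.4, 29.5 and 29.2 to 117, 107 and 122 FPKM. Gpnmb, a glycoprotein gene induced under lysosomal stress, rose from 2.26, 1.01 and 1.16 to 19.6, 16.7 and 17.5 FPKM. Not all hydrolases joined them: lower members included Ctss, Glb1 and Gusb. Ctss, the cathepsin S gene, fell from 211, 239.7 and 194 to 91.9, 112 and 116 FPKM. The receptor gene Scarb2 was lower too.

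Upstream of these, Tfeb itself rose from 4.28, 5.59 and 4.31 to 14.6, 13.7 and 14.4 FPKM (1.42 ± 0.12), Mitf rose by less (0.50 ± 0.18), and Tfe3 did not pass the test (-0.02 ± 0.11). Rragd and Flcn, a GTPase and its activator that control TFEB at the lysosome, were both higher (2.65 ± 0.24 and 1.80 ± 0.26). Of the pump, the cytosolic subunit gene Atp6v1c1 rose from 9.30, 10.8 and 10.4 to 52.1, 48.2 and 51.7 FPKM, Atp6v1e1 from 32.6, 26.5 and 28.0 to 131, 112 and 136 FPKM, and the membrane subunit gene Atp6v0d1 from 40.5, 36.2 and 40.2 to 133, 138 and 156 FPKM. The exceptions were Atp6v0a1 (-0.94 ± 0.13) and Atp6v0a2 (-0.61 ± 0.16), alternative forms of the subunit that steers the pump to its membrane.

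Autophagy delivers cargo to the lysosome. In its machinery 15 of 25 genes were higher and 4 lower, with a median of 0.57, and 17 were higher and 2 lower under median-ratio scaling. Across the alternative processings given below, other than a 5 FPKM filter or a minimum log2 change, 11 to 18 were higher and 1 to 6 lower. Sqstm1, the cargo receptor p62 and also an NRF2 target, rose from 1227, 1072 and 934 to 3264, 3534 and 3737 FPKM. Gabarapl1, which encodes a ubiquitin-like protein of the autophagosome, rose from 18.7, 14.7 and 14.4 to 173, 152 and 177 FPKM (log2 change 3.32 ± 0.24). Map1lc3b, the gene of LC3B, rose from 11.7, 12.2 and 13.5 to 36.5, 33.2 and 37.2 FPKM, and the starter kinase gene Ulk1 from 16.3, 13.7 and 17.2 to 51.3, 53.5 and 50.6 FPKM. Uvrag and Pik3c3, of the lipid kinase complex, were lower (-1.19 ± 0.23 and -0.59 ± 0.12). Becn1 and Atg16l1 were lower as deposited but were not called under median-ratio scaling.

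The promoter of Ctsd is shown because it holds a CLEAR-like E-box (TCACGTGA, the same on both strands), the type of site that TFEB binds, with an antioxidant response element nearer to the start. Matches are in capitals in the 250 bases before the RefSeq start, chr7:142387828-142388077 on the minus strand of GRCm38.p6.
Ctsd: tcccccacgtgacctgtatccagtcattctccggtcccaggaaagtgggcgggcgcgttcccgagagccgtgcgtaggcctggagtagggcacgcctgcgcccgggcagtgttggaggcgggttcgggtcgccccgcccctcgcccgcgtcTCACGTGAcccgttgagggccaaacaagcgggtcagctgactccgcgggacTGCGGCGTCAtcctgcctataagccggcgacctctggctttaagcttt
The E-box starts 99 bases and the antioxidant element 48 bases before the start. Such an E-box was in 4.61% of promoters of higher genes, 1.5% of lower genes and 2.47% of all 7649 genes. Among genes that rose by at least 2 on the log2 scale the share was 3.45%, and among those that fell by as much 0.472%.

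Glycolysis was the list with the highest median, 2.26 (2.36 under median-ratio scaling): 17 of 18 genes were higher and Pfkp alone was lower. The enzymes run from glucose uptake to lactate export. At entry, the glucose transporter gene Slc2a1 rose from 27.8, 31.6 and 27.4 to 154, 151 and 155 FPKM. Pfkl, the liver-type phosphofructokinase gene, rose from 6.50, 6.77 and 6.06 to 86.7, 83.7 and 94.9 FPKM (log2 change 3.59 ± 0.13, limma adjusted p = 4.7e-08), while Pfkp, the platelet type, fell from 25.0, 35.4 and 26.4 to 19.7, 21.4 and 18.9 FPKM. Per length, Pfkp was the higher of both in LPS and Pfkl in LPS+CPZ. Tpi1, triose phosphate isomerase, rose from 9.08, 9.71 and 9.81 to 132, 124 and 148 FPKM (log2 change 3.69 ± 0.14). Pgam1, phosphoglycerate mutase, rose from 29.8, 32.5 and 25.9 to 286, 283 and 281 FPKM. Several of these genes have processed pseudogenes that can share their fragments.

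Next come lower glycolysis and lactate export. Pgk1, phosphoglycerate kinase, rose from 49.8, 43.4 and 39.98 to 443, 412 and 519 FPKM, and Ldha, the lactate dehydrogenase gene, from 43, 55.2 and 46.1 to 164, 139 and 195 FPKM. Slc16a3, the lactate exporter, changed by 2.33 ± 0.22. The smallest rises were those of Hk2 (0.62 ± 0.23) and of Pfkfb3 (0.78 ± 0.27), whose libraries overlapped. The citric acid cycle takes up the pyruvate that is not turned into lactate. Of its 25 genes with those of itaconate synthesis, 2 were higher and 18 lower (2 and 14 under median-ratio scaling), with a median of -0.45, close to the -0.35 of all genes.

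**Figure D3:**
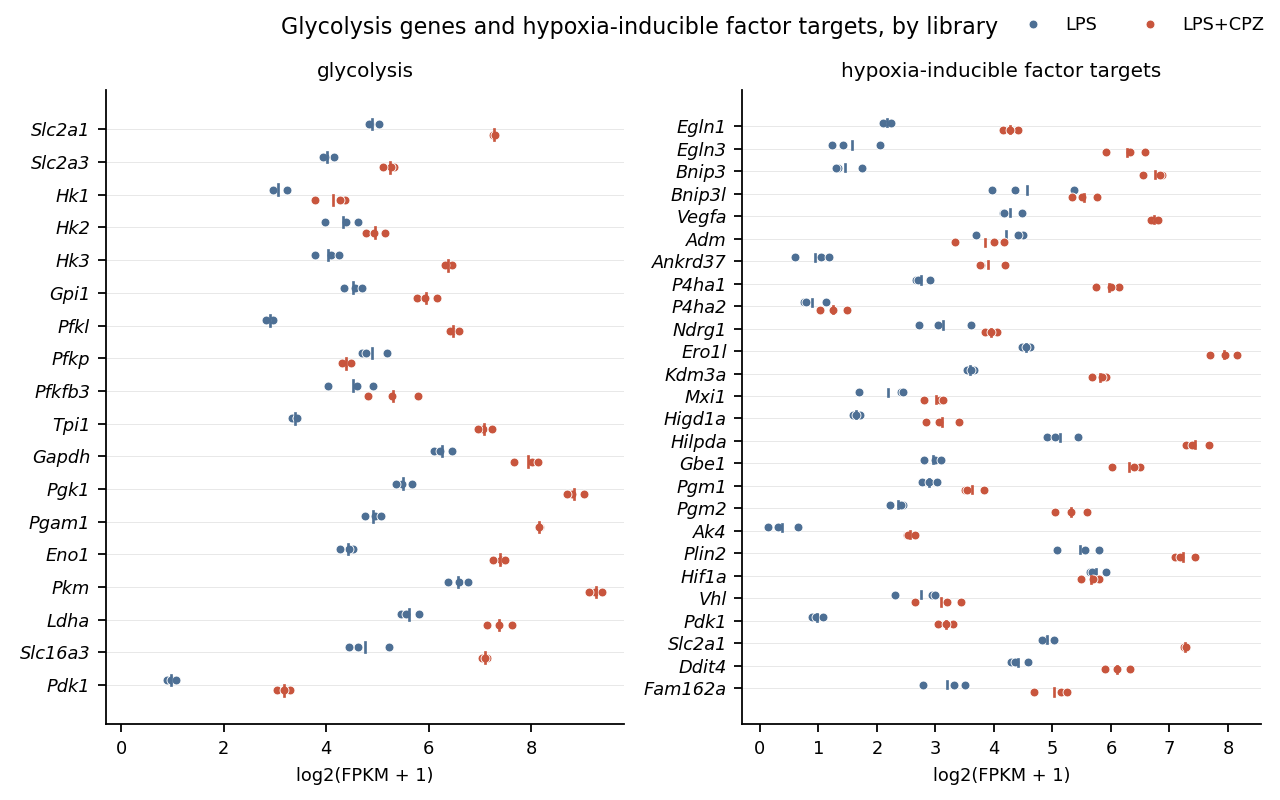
Values of the 18 glycolysis genes (left) and of 26 genes listed for the hypoxia-inducible factors (right) as log2(FPKM + 1), 1 point per library, blue for LPS and red for LPS+CPZ, with group means over 3 libraries as short vertical lines. The red points lie to the right of the blue ones in most rows, and Pfkp, Adm and Hif1a are the rows with a lower red mean.

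Glycolysis genes are textbook targets of hypoxia-inducible factors, so further targets were listed. That list was made after values had been seen and is described without a test of the list. Of its 26 tested genes, which include Hif1a, Vhl and 2 genes of the glycolysis list, 23 were higher and none lower under both scalings, with a median of 2.15. Bnip3, a mitophagy receptor gene, rose from 2.36, 1.53 and 1.47 to 117, 92.5 and 113 FPKM (log2 change 5.29 ± 0.19, limma adjusted p = 4.7e-08). Egln3, a prolyl hydroxylase gene that the factors induce and that in turn marks them for destruction, rose from 3.13, 1.36 and 1.69 to 94.9, 59.4 and 79.1 FPKM. Ero1l, an oxidase of the endoplasmic reticulum, rose from 23.5, 21.3 and 22.3 to 285, 205 and 246 FPKM. In all 3 genes the lowest LPS+CPZ library stood far above the highest LPS library, though for Bnip3 and Egln3 a lack of overlap was a condition of selection.

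Vegfa, the gene of vascular endothelial growth factor A, rose from 16.8, 21.4 and 17.0 to 103, 102 and 111 FPKM. P4ha1, a collagen prolyl hydroxylase gene, rose from 6.48, 5.36 and 5.48 to 69.8, 52.6 and 63.1 FPKM, and Gbe1, the glycogen branching enzyme gene, from 6.91, 7.53 and 6.01 to 89.1, 63.7 and 83.0 FPKM. Pdk1, the kinase that keeps pyruvate out of the citric acid cycle, changed by 2.20 ± 0.11. Hif1a, the factor's own gene, was at 59.6, 49.1 and 50.1 and 54.4, 50.7 and 44.1 FPKM and was not called (-0.09 ± 0.14), nor were Adm (-0.36 ± 0.25) and Vhl (0.34 ± 0.22). Oxygen and protein levels were not measured. In the pentose phosphate pathway, also listed after values were seen, Pgd, Tkt and Taldo1 were higher and Pgls and Rpia lower of 10 genes. Its first enzyme, G6pdx, was not called (-0.08 ± 0.17).

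The promoter of Bnip3 is shown with the core motif of hypoxia-inducible factors (ACGTG or CACGT) in capitals, for the 250 bases before the RefSeq start, chr7:138909507-138909756 on the minus strand of GRCm38.p6. The overlapping matches form a palindrome that starts 108 bases before the start.
Bnip3: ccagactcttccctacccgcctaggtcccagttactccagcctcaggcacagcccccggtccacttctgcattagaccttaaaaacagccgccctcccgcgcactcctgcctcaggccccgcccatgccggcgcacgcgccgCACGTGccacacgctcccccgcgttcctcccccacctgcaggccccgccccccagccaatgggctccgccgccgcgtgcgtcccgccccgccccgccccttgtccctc
This 5-base core is common, and it is part of the CLEAR-like E-box. It was in 30.3% of the 7649 promoters, in 38.9% of those of genes that rose by at least 2 on the log2 scale and in 20.3% of those that fell by as much. Among all higher genes the share was 35.9% and among all lower genes 28.3%. The heat shock element searched (TTCNNGAANNTTC or its complement) was in 43 of the 7649 promoters (0.562%), in 0.334% of those of higher genes and in 0.382% of those of lower genes. It was not found in the windows of Hspa1a and Hspa1b, which says only that these letters are not there.

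Histone genes formed a further group with a median above 0: 12 of 18 were higher and 1 lower, with a median of 0.87. The replacement histone gene H3f3a rose from 81.7, 76.1 and 87.2 to 205, 216 and 231 FPKM. Hist1h2bc, a gene of the replication-linked cluster that also yields polyadenylated transcripts, rose from 3.12, 2.11 and 2.34 to 11.7, 9.16 and 10.2 FPKM. Hist1h4i, a copy among several of the same protein, rose from 0.913, 1.11 and 0.904 to 4.29, 4.11 and 4.30 FPKM. Cluster copies are near-identical, so their separate levels are uncertain. The single lower member, H2afy, changed by -0.49 ± 0.12 and was not called under quantile scaling. Genes of S phase and mitosis did not move with the histones: 1 of 14 was higher and 11 lower.

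Interferon-induced genes were lower, apart from a pair that was not called. TRIF and interferon beta lead to a factor complex with STAT2 and IRF9, which binds the interferon-stimulated response element. Of 31 tested members 29 were lower and none higher (27 lower under median-ratio scaling), with a median of -1.97. Ifit3, an antiviral gene of the IFIT family, fell from 259, 393 and 147 to 7.42, 5.11 and 3.73 FPKM (log2 change -5.31 ± 0.42, limma adjusted p = 2.07e-06). Its close copy Ifit3b fell from 95.6, 141 and 50.1 to 3.69, 2.39 and 0.927 FPKM, and Ifit2 from 78.9, 89.8 and 53.2 to 2.56, 2.31 and 2.81 FPKM. Ifit3 and Ifit3b are similar enough to share fragments, while Ifit2 is a more distant member of the family.

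Sensors and effectors were among them. Ddx58, the gene of the RNA sensor RIG-I, fell from 33.9, 40.3 and 30.3 to 6.25, 4.98 and 4.91 FPKM, and Isg20, an exonuclease gene, from 61.3, 79.7 and 68.5 to 11.5, 12.1 and 11.4 FPKM. The transcription factor genes of the pathway were lower too: Irf7 by 2.20, Stat2 by 1.59 and Irf9 by 0.94 on the log2 scale. Irgm1 and Oasl1 were the members that did not pass the test (-0.62 ± 0.47 and -0.50 ± 0.22). LPS+CPZ replicate 2 was the highest of its group for the GTPase genes Irgm1, Igtp and Gbp2. Among guanylate-binding proteins and IFI genes 21 of 24 were lower and none higher, with a median of -1.42. The smallest adjusted p among them was that of Ifi209 (45.9, 54.6 and 47.0 to 8.03, 9.40 and 9.01 FPKM). Ifi30, a lysosomal thiol reductase gene used in antigen processing, was lower while most lysosomal genes were higher, falling from 62.1, 90.2 and 94.4 to 14.5, 16.2 and 17.9 FPKM, and Ifi213 changed by -2.49 ± 0.20.

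The Schlafen family, genes of growth control in lymphoid and myeloid cells, had 6 of 7 members lower and none higher, with a median of -1.80. Slfn4 was among the most abundant genes of the LPS libraries and fell from 2878, 2499 and 1422 to 525, 528 and 374 FPKM. Slfn5 fell from 63.7, 87.7 and 38.0 to 4.27, 2.22 and 1.94 FPKM (log2 change -4.05 ± 0.34), Slfn1 from 54.7, 61.3 and 43 to 16.9, 15.1 and 11.6 FPKM, and Slfn3 by 0.83 on the log2 scale. Slfn3, at 2.08, 2.10 and 1.88 FPKM in LPS, passed the filter through the LPS libraries alone and could hardly fail to differ. Slfn2 alone was not called, at 494, 509 and 399 and 483, 435 and 368 FPKM, and its libraries overlapped.

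The promoters of Ifit3 and Ifit3b are shown because each holds a pair of interferon-stimulated response elements (ISRE, GAAANNGAAA or its complement TTTCNNTTTC). The windows are chr19:34583279-34583528 for Ifit3 and chr19:34607707-34607956 for Ifit3b, both on the plus strand of GRCm38.p6 and from RefSeq. Capitals mark the ISREs and an AP-1 match closer to the start.
Ifit3: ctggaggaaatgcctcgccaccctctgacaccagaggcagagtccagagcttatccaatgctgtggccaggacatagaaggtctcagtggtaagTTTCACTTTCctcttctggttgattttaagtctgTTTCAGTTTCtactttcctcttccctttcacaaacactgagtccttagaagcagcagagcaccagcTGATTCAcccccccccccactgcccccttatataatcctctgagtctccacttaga
Ifit3b: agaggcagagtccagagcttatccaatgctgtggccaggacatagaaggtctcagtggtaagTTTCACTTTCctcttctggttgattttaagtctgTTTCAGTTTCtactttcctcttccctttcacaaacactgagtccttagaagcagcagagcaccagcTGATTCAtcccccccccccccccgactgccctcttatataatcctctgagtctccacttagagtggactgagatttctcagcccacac
The ISREs start 156 and 122 bases before the start of Ifit3 and 188 and 154 bases before that of Ifit3b. An ISRE was in 13.7% of promoters of genes that fell by at least 2 on the log2 scale, in 4.79% of all lower genes, in 3.54% of higher genes and in 4.16% of the 7649 genes.

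Cytokine and other ligand genes went both ways, more often down. Of 13 interleukins 9 were lower and 2 higher, with a median of -2.06, and of 54 secreted and surface ligands, a list that includes them, 33 were lower, 8 higher and 13 not called, with a median of -1.17. Il1b, the most abundant interleukin, fell from 4351, 3073 and 2719 to 463, 509 and 447 FPKM (log2 change -2.81 ± 0.22, limma adjusted p = 2.19e-06). Among the genes ranked for losses, which leave out globins, predicted genes, pseudogenes and immunoglobulin segments, none lost more FPKM. Il6 fell from 70.0, 28.9 and 34.5 to 1.81, 3.803 and 2.90 FPKM. Il18, whose product is released with IL-1 beta, fell from 9.55, 9.53 and 9.17 to 1.24, 1.32 and 1.02 FPKM. The interleukin 12 family split: Il12a, Il23a and Il27 fell by 2.33, 3.06 and 2.96 on the log2 scale, whereas their partners Il12b and Ebi3 were not called (-0.23 ± 0.20 and -0.23 ± 0.15).

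Il10, which restrains macrophage activation, went against the group. It stood at 68.2, 160.02 and 82.8 FPKM in LPS and 524, 553 and 599.9 in LPS+CPZ (log2 change 2.52 ± 0.27, limma adjusted p = 1.44e-05). Its relative Il19 was also higher (0.79 ± 0.18). Among TNF superfamily ligands, 4 of 5 were lower. Tnf fell from 2813, 991 and 1430.5 to 218, 269 and 248 FPKM, with LPS replicate 1 well above the other LPS libraries. Tnfsf9, the ligand of the costimulatory receptor 4-1BB, fell from 30.0, 26.4 and 20.9 to 5.51, 4.59 and 4.91 FPKM, and Tnfsf8 and Tnfsf10 fell by 1.63 and 1.02. Tnfsf10, at 1.16, 1.24 and 1.05 FPKM in LPS, passed the filter through the LPS libraries alone and could hardly fail to differ. Tnfsf14, which encodes LIGHT, rose from 6.53, 7.71 and 3.74 to 74.5, 72.6 and 56.4 FPKM (log2 change 3.33 ± 0.23).

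Growth factors and chemokines also divided. Csf2, the gene of GM-CSF, fell from 35.5, 29.6 and 43.7 to 0.928, 1.596 and 0.796 FPKM (log2 change -4.15 ± 0.20), and Ereg, an EGF receptor ligand, fell by 1.31 on the log2 scale. Ereg, at 1.80, 1.51 and 1.86 FPKM in LPS, passed the filter through the LPS libraries alone and could hardly fail to differ. The neutrophil chemokine genes moved apart: Cxcl1 fell from 309, 182 and 191 to 35.2, 38.8 and 65.6 FPKM, while its neighbours in function Cxcl2 and Cxcl3 rose, Cxcl2 from 2058, 1361 and 1482 to 3638, 4244 and 4247 FPKM and Cxcl3 from 95.9, 46.6 and 45.5 to 254, 265 and 293 FPKM. Monocyte chemokine genes were lower, Ccl2 by 2.33 and Ccl7 by 2.75, as was the interferon-induced Cxcl10 (-3.21 ± 0.32). Ccl3 was not called, at 4064, 2726 and 2766 and 3135, 3436 and 3809 FPKM. The lymphocyte ligands Lta and Ltb were lower as well (-1.70 ± 0.16 and -1.96 ± 0.18), in libraries where T and NK cell markers were lower in 14 of 14 cases, and the part of the latter was not tested.

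The promoter of Il6 is shown as that of a fallen cytokine gene with a kappa B motif (GGGNNTTTCC or its complement), the site of NF-kB, close to its start. Capitals mark it and an AP-1 match at the far end of the window, chr5:30012864-30013113 on the plus strand of GRCm38.p6, from RefSeq.
Il6: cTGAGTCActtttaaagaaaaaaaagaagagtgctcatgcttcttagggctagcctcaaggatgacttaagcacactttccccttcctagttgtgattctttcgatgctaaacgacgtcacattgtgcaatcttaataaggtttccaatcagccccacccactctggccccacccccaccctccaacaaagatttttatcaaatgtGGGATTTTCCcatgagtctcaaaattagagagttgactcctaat
The kappa B match starts 44 bases before the start. Such a match was in 5.66% of promoters of genes that fell by at least 2 on the log2 scale, in 1.48% of those that rose by as much and in 2.33% of all. Among all lower genes the share was 2.27% and among all higher genes 2.47%.

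Ribosome production genes were lower without exception. Of the 30 tested genes of ribosome biogenesis, which make and assemble ribosomal RNA in the nucleolus, all 30 were lower under each of the 5 scalings, with a median of -1.61 (-1.42 under median-ratio scaling). Myc, the transcription factor that drives many of them, fell from 96.1, 151 and 105 to 5.57, 5.95 and 5.49 FPKM (log2 change -4.12 ± 0.23, limma adjusted p = 1.98e-07). Polr1b, a subunit of RNA polymerase I, fell from 8.36, 15.5 and 9.85 to 1.17, 1.37 and 1.05 FPKM. The helicase gene Ddx21 fell from 63.3, 98.5 and 79.3 to 15.6, 18.7 and 17.8 FPKM. For these 3 genes LPS replicate 2 was the highest LPS library, and no LPS+CPZ library reached any LPS library. For Myc such a lack of overlap was a condition of selection.

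Nolc1, a nucleolar scaffold gene, fell from 29.0, 50.7 and 34.9 to 5.57, 7.06 and 7.05 FPKM, and Tcof1, the gene of treacle, from 31.3, 43.2 and 37.1 to 8.19, 11.3 and 9.42 FPKM. The smallest fall of the list was that of Wdr12 (-0.75 ± 0.12). The machinery of translation moved less but in the same direction. Of 80 cytosolic ribosomal proteins 67 were lower and none higher (47 lower under median-ratio scaling), of 52 initiation factors 37 were lower and 3 higher, and of 20 tRNA synthetases 17 were lower and none higher.

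Mitochondrially encoded mRNAs were lower in 13 of 13 cases and in 12 of 13 under median-ratio scaling, with a median of -1.42. They encode core subunits of the respiratory chain and ATP synthase. The oxidase subunit gene mt-Co1 fell from 3386, 4053 and 4479.8 to 1673, 1861 and 1925 FPKM (log2 change -1.12 ± 0.19). The complex I genes mt-Nd5, mt-Nd4l and mt-Nd3 fell by 1.42, 1.88 and 1.53 on the log2 scale. At mt-Atp6 the LPS+CPZ libraries disagreed: it fell from 1264, 1545 and 1759.9 to 597, 109 and 130.4 FPKM, and it overlaps mt-Atp8, so its fragments are hard to assign. Nuclear genes of the chain moved less, with 4 of 35 complex I subunits higher and 14 lower, a median of -0.23.

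Transcription regulators induced by signals went both ways, 21 of 61 higher and 24 lower, with a median of -0.09 (0.07 under median-ratio scaling). Cebpb, which encodes C/EBP beta, rose from 39.4, 32.3 and 20.1 to 177, 238 and 245 FPKM (log2 change 2.84 ± 0.25). The AP-1 genes Fos and Jun rose, Fos from 7.31, 8.09 and 7.75 to 33.2, 39.4 and 28.1 FPKM and Jun from 109.7, 92.2 and 66.9 to 315, 390.5 and 311 FPKM. Egr3 fell from 26.4, 36.6 and 25.2 to 0.606, 1.24 and 0.861 FPKM, and Nr4a1, an orphan nuclear receptor gene, from 386, 371 and 229.96 to 29.2, 34.2 and 28.4 FPKM (log2 change -3.35 ± 0.20). These are members with large changes in the list, and none overlapped between groups.

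The libraries with ethanol serve as a second reference, without CPZ. Its libraries held 0.172 to 0.221% globin and 6.94 to 7.79% Gm22133, and their cell markers differed from those of LPS+CPZ. Neutrophil markers summed to 44310.4 to 48895 FPKM in LPS+EtOH against 6455 to 6988 in LPS+CPZ, B cell markers to 157 to 215 against 1248 to 1470, and T and NK cell markers to 2.69 to 5.15 against 23.4 to 42.7. The part of these markers in the differences from LPS+EtOH was not tested. The comparison shares the LPS+CPZ libraries with the one above, so the values are set side by side. Against LPS+EtOH, 63.5% of the 11344 genes were higher in LPS+CPZ and 13.4% lower, and the median log2 difference was 0.57. After median-ratio scaling the median was 0.29, and 5293 genes were higher and 2556 lower. Glycolysis genes were higher than in LPS+EtOH in 16 of 18 cases (14 higher and 1 lower after scaling), and chaperone genes in 26 of 28 (22 higher and 1 lower after scaling). Of 31 interferon response genes 2 were higher and 20 lower (2 and 24 after scaling). V-ATPase genes split as 6 higher and 7 lower (3 and 10 after scaling). Of 26 NRF2 and glutathione genes 17 were higher and 2 lower (10 and 4 after scaling). After scaling, lysosome genes split as 13 higher and 8 lower of 30, autophagy genes as 12 and 9 of 25, and iron and heme genes as 9 and 5 of 22. From NRF2 to iron and heme, the scaled medians were 0.24, 0.12, 0.29 and 0.30, against 0.29 over all genes. Ribosome biogenesis genes, all lower than in LPS, were higher than in LPS+EtOH in 26 of 30 cases (16 higher and 1 lower after scaling). Of the 15 largest falls against LPS, 5 were called against LPS+EtOH as deposited, 4 of them higher in LPS+CPZ and 1 lower, and of the 15 largest rises 13 were called, all higher. Under all 5 scalings alike, 2 of the falls were called higher and 1 lower, and 12 of the rises were called higher.

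Single genes chosen after their values were seen show different patterns. Bnip3 was at 3.24, 1.67 and 2.50 FPKM in the LPS+EtOH libraries, near its LPS level (LPS+CPZ minus LPS+EtOH 4.98 ± 0.19, limma adjusted p = 6.45e-08). Gclc was at 56.7, 48.6 and 71.5 and Tpi1 at 8.65, 5.86 and 8.35 FPKM there (3.53 ± 0.16 and 3.99 ± 0.14). Hmox1 and Ctsd stood far above their LPS values in LPS+EtOH too. Hmox1 was at 3235, 3986 and 4235 FPKM there (1.85 ± 0.18) and Ctsd at 1602, 1569 and 1720 FPKM (0.54 ± 0.17). Rhov was at 131, 142 and 94.3 FPKM in LPS+EtOH, and LPS+CPZ did not differ from it beyond the error (-0.47 ± 0.32, limma adjusted p = 0.207), though after median-ratio scaling it passed the test as lower (-0.94). Gadd45g was at 193, 219.6 and 209 FPKM (0.13 ± 0.18). Nr4a1, low in LPS+CPZ, was at 401, 389.9 and 325 FPKM in LPS+EtOH, overlapping its LPS values (-3.56 ± 0.20). Steap4 was at 27.5, 24.0 and 20.9 FPKM (-3.07 ± 0.23). Edn1 was low in both groups, at 0.886, 0.940 and 0.620 FPKM in LPS+EtOH (0.04 ± 0.30).

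**Figure D4:**
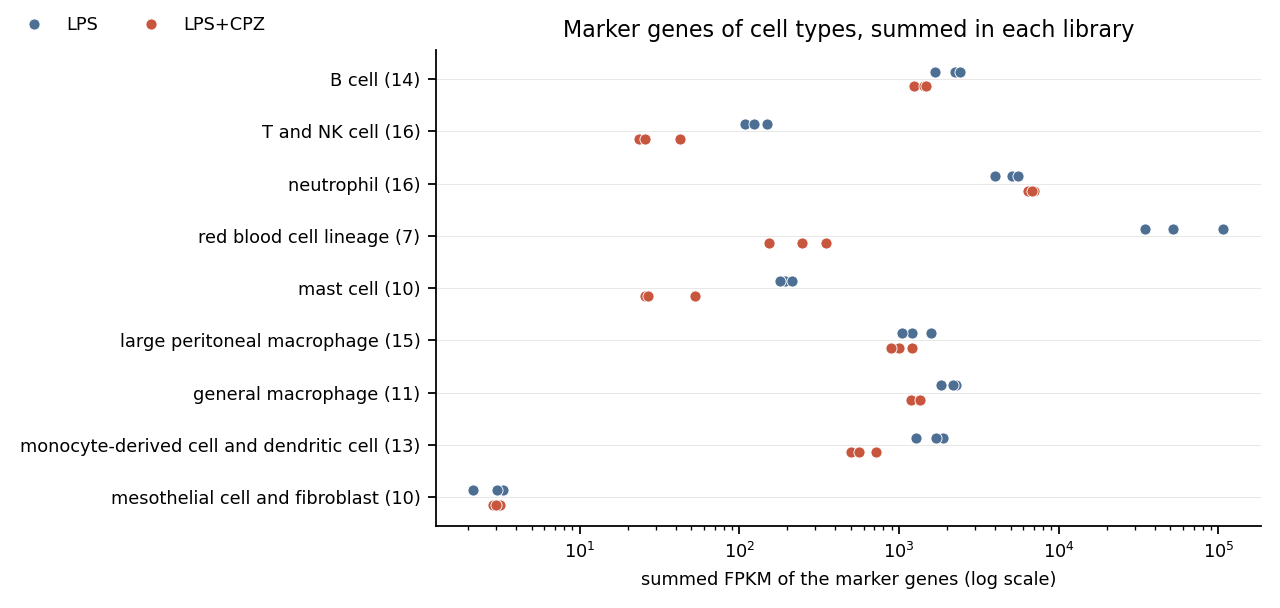
Summed FPKM of the marker genes of 9 cell types, with the number of markers found in the table in parentheses, on a logarithmic axis, 1 point per library, blue for LPS and red for LPS+CPZ. Red blood cell, mast cell and T and NK cell sums were lower in each LPS+CPZ library than in any LPS library. The same held for the sums of B cell, general macrophage, and monocyte-derived and dendritic cell markers. The neutrophil sum was higher in each LPS+CPZ library.

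Marker genes of cell types were summed in each library. Whether a marker's transcripts came from other cells or from the macrophages was not tested. General macrophage markers summed to 1839 to 2260 FPKM in LPS and 1183 to 1361 in LPS+CPZ, with 2 of 9 tested genes higher and 5 lower. Large peritoneal macrophage markers summed to 1040 to 1579 and 886 to 1210 FPKM, with 1 of 12 higher and 10 lower. B cell markers reached a sum of the same order, 1681 to 2416 FPKM in LPS and 1248 to 1470 in LPS+CPZ, with 13 of 14 lower. The exception, Ighm, the immunoglobulin M heavy chain gene, made up most of the sum and was not called (-0.09 ± 0.17). T and NK cell markers summed to 108 to 150 and 23.4 to 42.7 FPKM, with 14 of 14 lower, and mast cell markers to 181 to 214 and 25.8 to 52.8 FPKM, with 6 of 7 lower.

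Red blood cell markers showed the widest gap, 34791 to 107461 FPKM in LPS and 153 to 349 in LPS+CPZ, with 6 of 6 lower and Slc4a1 listed at 0 in all LPS+CPZ libraries. Neutrophil markers summed to 3969.73 to 5583 FPKM in LPS and 6455 to 6988 in LPS+CPZ. S100a8 rose from 1073, 835 and 1077 to 2845, 2579 and 2833 FPKM, while its partner S100a9 was not called (-0.06 ± 0.18), and the receptor gene Cxcr2 fell (-1.34 ± 0.26). Without LPS replicate 3, 7 of the 14 neutrophil markers were higher. Monocyte-derived and dendritic cell markers were lower in 6 of 8 cases and higher in 2. The libraries labelled as macrophages thus held transcripts of marker genes of several blood cell types. The part of such cells in the changes of the other gene groups was not tested.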

How the data were processed

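RNA was measured by sequencing in 9 libraries, 3 per group, each a pool of 3 RNA samples. The authors deposited 1 table of FPKM values per gene and library. Per the submitters' processing notes, reads were checked with FastQC 0.11.2 and FastQC, STAR and StringTie were used. These notes name the human build hg38, although the table holds mouse gene IDs, of which 55154 of 55335 were found in the GENCODE M21 mouse annotation. Libraries were strand-specific, per the labels' protocols, but whether strand was used in the counting, and how multimapping reads were treated, is not given in the sources used here. Of the IDs 3225 have no symbol and 156 share one. FPKM sums per library ran from 302126 to 363356, and no counts were used, so depth and counting error are unknown.

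A gene was kept if 3 or more of the 6 LPS and LPS+CPZ libraries had 1 FPKM or more. Values were tested as log2(FPKM + 1) with limma 3.58.1 in R 4.3.3: a linear model with group as its only term over all 9 libraries, which share 1 estimate of the spread with 6 residual degrees of freedom, empirical Bayes moderation with a mean trend, 2-sided tests and Benjamini-Hochberg adjustment over 11344 genes at 0.05. Figures were drawn with matplotlib 3.10.9 and tables made with pandas 2.3.3 and numpy 2.4.6 under Python 3.11.15. The test was checked on simulated data with independent values, in which few genes changed and the make-up of the libraries did not. That check does not cover a shift in make-up like the one seen here.

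Genes were named by a rule. It took the 15 largest rises and 15 largest falls among called genes with no overlap between groups, an average of 5 FPKM or more in whichever group was higher and the same call under 5 scalings. Predicted genes, pseudogenes, immunoglobulin and T cell receptor segments, globin genes and IDs with a missing or shared symbol were left out of these. It also took the 5 largest gains and the 5 largest losses in FPKM, with the same genes left out. For each list described it took up to 3 called members with the smallest adjusted p and 1 of the other direction, and for ligands and transcription regulators the 3 largest rises and falls. Lists were described where the median was among the 8 highest or 8 lowest. A few genes taken by the rule are not reported here. Other members named singly were chosen after their values were seen. The comparison, its lists and tests were chosen with earlier results of these data known, and the lists of hypoxia-inducible factor and pentose phosphate genes were added after values had been seen. Promoters of 7649 of the 11344 genes were matched by symbol to RefSeq sequences of GRCm38.p6, from 250 bases before to 50 after the start. Motifs were counted in these 300 bases on both strands.

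Alternatives were other pseudocounts (0.1 and 5), no filter or a filter of 5 FPKM, 4 rescalings and a combined one, other moderation, the 6 libraries alone, a replicate block, a minimum log2 change of 1 and leaving out each library. Removing globin fragments, removing globin genes with Gm22133, and the block with median-ratio scaling were added after seeing the data.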

Additional observations from a re-analysis of the deposited data

How the results depend on the processing

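The 2326 higher and 5640 lower genes stayed within 1.5 times under the alternatives run, except that a minimum log2 change of 1 left 1132 and 2012, and a filter of 5 FPKM, with 6192 genes tested, left 3060 lower. The median log2 change of all genes, -0.352, kept its sign. It was -0.446 with a pseudocount of 0.1, -0.183 with 5, -0.013 with no filter on 31539 genes, -0.652 with globin genes left out, -0.206 under median-ratio scaling (-0.207 with globin genes left out too), and -0.078 under quantile scaling. With globin fragments taken out it was -0.424, and with globin genes and Gm22133 left out -0.491. Leaving out 1 library at a time gave 2176 to 2224 higher genes, 5151 to 5683 lower genes and medians of -0.391 to -0.316. Deviations of same-numbered libraries from their group means correlated at 0.275, 0.0933 and 0.0237, and 1 of 3 LPS libraries correlated more with another number than with its own, so the numbers were not taken to pair the libraries. A replicate block gave 2351 higher and 5667 lower genes with a median of -0.352, and with median-ratio scaling 2794, 4797 and -0.206. Of 95 genes named by rule, in 2084 alternative values, 1 call was lost, that of H2afy under quantile scaling. The largest rises and falls were selected for the same call under 5 scalings, and list members mainly for a small adjusted p. The low loss among named genes was thus partly fixed by their selection, and it does not measure how stable the calls of other genes are. Against LPS+EtOH, 7 of 180 calls were lost and 9 gained, and none reversed. Of 594 alternative counts of list members, 585 stayed within 1.5 times. Depth is unknown, and genes near 1 FPKM are the least precise.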

Other observations

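The balance of calls is given by gene type, without a test between types. Of 9419 protein-coding genes 1807 were higher and 4877 lower, with a median log2 change of -0.38. Of 103 small nucleolar RNA gene models, which mostly lie in introns of host genes, 8 were higher and 68 lower, with a median of -0.82 (-0.69 under median-ratio scaling). Among 148 immunoglobulin variable segments 1 was higher and 110 lower, a median of -0.96, in libraries with lower B cell markers. Transcripts that start from the same promoter region as a neighbouring gene but on the other strand (bidirectional promoter long noncoding RNAs) were higher in 16 of 23 cases and lower in 2, a median of 0.91 under both scalings. Of 183 antisense genes 73 were higher and 59 lower, of 174 lincRNA genes 67 and 56, and of 110 microRNA gene models 36 and 34. Libraries were strand-specific, but the use of strand in the counting is not given in the sources used here, so antisense and bidirectional gene models may hold fragments of their partner genes.

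Change also varied with gene structure. Genes were split into quintiles. In the quintile with the longest transcripts 61.2% were lower and 15.5% higher, with a median of -0.52, and in the quintile with the shortest 38.8% were lower and 25.0% higher, with a median of -0.21. By number of exons, the top quintile had 63.2% lower genes and a median of -0.54, and the bottom quintile 39.4% and -0.18. Medians ran only from -0.38 to -0.32 over the quintiles of GC content. These are descriptions over genes, which are not replicates.

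In LPS+CPZ the model Gm22133 alone accounted for 13.1, 13.9 and 16.2% of FPKM, more than any other gene model there. All 109 of its bases lie in Ftl1 exons on the same strand, so its value cannot be separated from that of the ferritin light chain transcript in these data.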
